A study of Homo sapiens with 12 samples.

Results

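The genes S100A8, S100A9 and S100A12 lie in 1 cluster on chromosome 1, and the accessible chromatin around them was described from ATAC-seq peaks of KO-52 cells. The window ran from 50 kb before the first of the 3 gene bodies to 50 kb after the last, at chr1:153307854-153441073 of hg38, which is 133 kb. It held 27 of the 355515 common regions, a common region being the union of the overlapping peaks of all 6 peak lists. They were numbered R1 to R27 along the chromosome, from the side of PGLYRP4 to the side of S100A7A. S100A9 lies at chr1:153357854-153361023 on the plus strand, S100A12 at chr1:153373711-153375621 and S100A8 at chr1:153390032-153391073, both on the minus strand (GENCODE release 44).

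The calgranulins are small calcium-binding proteins that neutrophils and monocytes make in large amounts. S100A8 and S100A9 pair as calprotectin, which withholds zinc and manganese from microbes and signals through TLR4, and S100A12 is a ligand of the receptor RAGE. Their genes are switched on late in myeloid maturation, a programme in which CEBPA, a transcription factor of granulocytes, has a central role. CEBPA is made as the full-length isoform p42 and the shorter p30, which lacks part of the activation domain and is the isoform left in many CEBPA-mutant leukaemias.

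ATAC-seq marks DNA that the transposase Tn5 can reach. KO-52 is an acute myeloid leukaemia cell line with CEBPA mutations on both alleles, which every group here carried, and the cells were transduced with an empty vector (EV), with p42 or with p30. Each line was kept in DMSO or treated with tunicamycin (Tm), which blocks protein glycosylation and causes stress of the endoplasmic reticulum, at 2 µg/mL for 8 h. The libraries were 2 per condition and 12 in all, each from 50000 cells, and the peaks used here were called on the pooled replicates, so each condition gave 1 value and no replicate spread. The methods describe long-term expression in KO-52 from p42-ERT2 and p30-ERT2 constructs in cells sorted for GFP. ERT2 holds a fused protein outside the nucleus until 4-hydroxytamoxifen is given, and per the methods cells with ERT2 fusions and their empty vector controls received it before an experiment. The labels of these libraries name neither the fusion nor the drug.

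The lists held 187704 (EV, DMSO), 207679 (p30, DMSO), 254239 (p42, DMSO), 201280 (EV, Tm), 187958 (p30, Tm) and 221501 peaks (p42, Tm), from an estimated 22250000 to 29980000 tags, a tag being 1 sequenced read or fragment as MACS2 counts it. The deepest list was that of p42 cells in DMSO, and a weak region is called more easily in a deeper list. Promoters of all 7 myeloid progenitor markers, SPI1, PTPRC, CD33, MPO, KIT, CSF3R and CD34, had a peak in every list. Promoter peaks were also found in every list at CD3E, CD3D and EPCAM, markers of other cell types, and in none at MS4A1, HBB and KRT5. By list, 78.9 to 82.1% of all 20007 protein-coding genes had a promoter peak, so its presence says little about cell type. An open promoter does not show that a gene is expressed, and no RNA was measured in these libraries.

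The 250 bases before the annotated start sites are shown first, since the peaks of the 3 promoters are compared throughout. They are from RefSeq on GRCh38, written 5′ to 3′ on the strand of the gene, and capitals mark exact matches to the letters searched, TTGCNNAA for CEBP and TGANTCA for AP-1.
S100A12 promoter, chr1:153375622-153375871, minus strand: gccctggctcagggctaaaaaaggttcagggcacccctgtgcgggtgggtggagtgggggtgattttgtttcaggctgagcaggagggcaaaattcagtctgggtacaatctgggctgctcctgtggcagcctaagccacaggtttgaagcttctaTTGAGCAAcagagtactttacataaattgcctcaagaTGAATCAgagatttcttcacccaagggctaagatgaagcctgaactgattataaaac
S100A9 promoter, chr1:153357604-153357853, plus strand: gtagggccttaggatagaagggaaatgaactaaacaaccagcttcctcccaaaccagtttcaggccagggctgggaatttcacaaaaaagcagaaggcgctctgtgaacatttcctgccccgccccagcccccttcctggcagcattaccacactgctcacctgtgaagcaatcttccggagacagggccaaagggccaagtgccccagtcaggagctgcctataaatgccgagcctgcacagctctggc
S100A8 promoter, chr1:153391074-153391323, minus strand: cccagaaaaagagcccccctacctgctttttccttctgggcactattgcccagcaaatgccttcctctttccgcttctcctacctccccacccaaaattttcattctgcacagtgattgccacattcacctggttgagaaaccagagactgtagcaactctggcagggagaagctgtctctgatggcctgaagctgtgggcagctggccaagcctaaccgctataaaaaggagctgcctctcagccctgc
The S100A12 promoter held a CEBP match, TTGAGCAA, that began 94 bases before the start site, and an AP-1 match, TGAATCA, that began 57 bases before it. Neither the S100A9 nor the S100A8 stretch held a match to any of the 7 strings searched. The same CEBP letters were in 10.5% of the 35116 RefSeq promoters of 300 bases and the AP-1 letters in 7.71%.

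Intergenic sequence is shown for 3 regions, as the 201 bases centred on the strongest summit, from hg38 on the plus strand with the same meaning of the capitals. R16 and R15 lie between S100A9 and S100A12 and were strongest in p42 cells, and R12 had the highest −log10 q of the window in all lists.
R16, chr1:153368548-153368748: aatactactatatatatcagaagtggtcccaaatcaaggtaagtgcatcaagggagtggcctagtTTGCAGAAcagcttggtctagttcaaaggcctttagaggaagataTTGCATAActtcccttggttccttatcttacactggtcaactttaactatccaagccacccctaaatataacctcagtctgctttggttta
R15, chr1:153365350-153365550: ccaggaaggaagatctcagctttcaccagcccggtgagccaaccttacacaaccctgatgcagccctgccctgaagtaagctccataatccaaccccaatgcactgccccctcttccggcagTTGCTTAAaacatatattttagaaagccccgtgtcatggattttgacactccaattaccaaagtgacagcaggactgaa
R12, chr1:153355586-153355786: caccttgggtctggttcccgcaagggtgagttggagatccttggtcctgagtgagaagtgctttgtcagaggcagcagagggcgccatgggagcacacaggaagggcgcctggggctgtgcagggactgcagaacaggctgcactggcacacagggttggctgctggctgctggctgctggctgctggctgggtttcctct
R16 held a pair of CEBP matches, TTGCAGAA and TTGCATAA, at 31 bp before and 14 bp after the summit. R15 held 1, TTGCTTAA, at 26 bp after its summit. R12 held no match to the 7 strings.

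**Figure D1:**
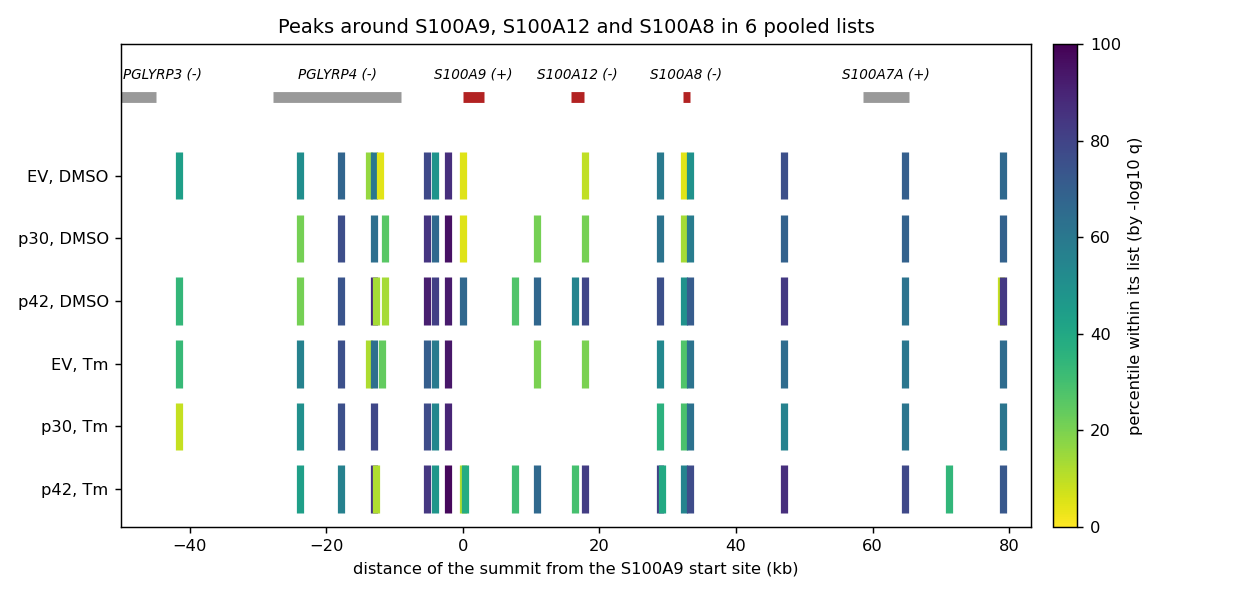
Each bar is a peak in 1 of the 6 pooled lists, placed at the distance of its region from the S100A9 start site in kb and coloured by its percentile among all peaks of that list. Protein-coding genes are drawn above, the 3 calgranulins in red. The peaks 2.17 to 5.21 kb before S100A9 are in every list. Between S100A9 and S100A12, the bars of R16 at 10.8 kb reach a middle percentile only in the rows of p42 cells. Those of R15 at 7.6 kb are in these rows alone and low.

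Peak heights are not normalized between lists, so each peak was described by its percentile, the share of the peaks of its own list with a lower −log10 q. The number of tags stacked at the summit was recovered from how MACS2 computes fold and p. An interval given with tags is an exact 95% Poisson interval, or for a ratio an exact conditional one, and covers counting error only. A region without a peak was not detectable at the depth of that list, which does not show that it was closed. The fewest tags of any called peak were 4 in each list.

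At S100A9, the calcium-binding partner of S100A8, the start site had its strongest peak in p42 cells in DMSO. R13, at chr1:153357598-153357895, covers the 28 bases of the non-coding exon 1 and the bases before it. In DMSO its percentile was 5.0 in EV, 4.88 in p30 and 66.7 in p42 cells, and after tunicamycin it was 12.2 in p42 cells, with no peak in EV or p30 cells. The p42 DMSO list therefore stood alone, and the EV and p30 lists were alike at the bottom of their ranking. The summit had 7 tags in EV, 8 in p30 and 20 in p42 cells in DMSO, and 9 in p42 cells after tunicamycin. Scaled to depth, the p42 summit was 2.21 times that of p30 cells in DMSO, with an interval of 0.933 to 5.81 that includes 1. After tunicamycin p42 cells had another peak, R14 at chr1:153358135-153358331, with its summit 367 bp after the start site. R14 reached 63 bases into exon 2, which holds the start of the coding sequence, and its percentile was 38.6 with 12 tags. It was called in no other list.

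The upstream side of S100A9 was open in every list. R12, with its summit 2.17 kb before the start site at chr1:153355573-153355788, was at percentile 86.5 in EV, 95.7 in p30 and 92.7 in p42 cells in DMSO, and at 94.0, 89.5 and 98.0 after tunicamycin. Its summit had 26, 38 and 39 tags in DMSO and 34, 30 and 42 after tunicamycin in the same order. The values of the 3 lines overlapped in their intervals, the p42 to p30 ratio being 0.908 (0.566 to 1.46) in DMSO and 1.27 (0.776 to 2.1) after tunicamycin. R10, 5.21 kb before the start site, was at 78.1 (EV), 84.5 (p30) and 91.7 (p42) in DMSO and at 70.6, 77.2 and 83.8 after tunicamycin. In both treatments it ranked lowest in EV and highest in p42 cells. At its summit the p42 to p30 ratio was 1.15 (0.675 to 1.97) in DMSO and 1.07 (0.584 to 1.98) after tunicamycin. The p42 to EV ratio was 1.24 (0.7 to 2.24) and 1.35 (0.72 to 2.58), so each of these intervals includes 1. R11, 4.1 kb before the start site, was at 48.1, 66.3 and 81.3 in DMSO and at 58.9, 54.1 and 47.5 after tunicamycin, so that the order of the 3 lines turned around with the treatment. The summit tags of R11 in p42 cells were 29 in DMSO and 14 after tunicamycin, a ratio of 0.569 with an interval of 0.278 to 1.11. The p42 to p30 ratio of R11 was 1.35 (0.732 to 2.55) in DMSO and 0.847 (0.379 to 1.88) after tunicamycin, so that neither order exceeds counting error.

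At S100A12, the calgranulin that signals through RAGE, the promoter had the largest spread of percentile of all 27 regions. R18, at chr1:153375390-153375817, covers the 70 bases of exon 1 and most of the promoter shown above, and its strongest summit was 104 bp before the start site. Its percentile in DMSO was 9.43 in EV, 21 in p30 and 79.0 in p42 cells, and after tunicamycin it was 20 in EV and 82.2 in p42 cells, with no peak in p30 cells. Both p42 lists were far above all others. The summit had 5, 6 and 17 tags in EV, p30 and p42 cells in DMSO, and 6 in EV and 18 in p42 cells after tunicamycin. The p42 summit was 2.51 times that of p30 cells in DMSO (0.943 to 7.77) and 2.96 times that of EV cells after tunicamycin (1.13 to 9.12). The first interval includes 1 and the second leaves it out. The second is 1 of 14 such ratios to EV cells after tunicamycin. Among that many intervals, counting error alone can leave out 1. R17, in the intron before the last exon of S100A12 at chr1:153374212-153374313, had a peak in p42 cells only, at percentile 54.8 with 10 tags in DMSO and at 29.3 with 7 tags after tunicamycin.

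Between S100A9 and S100A12, R16 and R15 were highest in p42 cells, R16 at a middle percentile and R15 at a low one. R16, at chr1:153368613-153368924 and 6.97 kb downstream of the S100A12 start site, had no peak in EV cells in DMSO and was at percentile 21 in p30 and 66.8 in p42 cells. After tunicamycin it was at 20 in EV and 66.4 in p42 cells, with no peak in p30 cells. The summit had 13 tags in DMSO and 12 after tunicamycin in p42 cells, and 6 in each of the other lists that held it. The p42 to p30 ratio in DMSO was 1.92 (0.68 to 6.15). R15, at chr1:153365384-153365506, had a peak in p42 cells only, at 27.4 with 8 tags in DMSO and at 30.5 with 7 tags after tunicamycin. It was thus far weaker than R18 in the same lists.

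At S100A8 the promoter was open in every list. R22, at chr1:153390881-153391372, covers the start sites of its transcripts, with the strongest summit 28 bp before the outermost one. Its percentile was 49.1 in EV, 58.4 in p30 and 71.4 in p42 cells in DMSO, and 61.9, 62.6 and 77.1 after tunicamycin. The p42 list ranked highest in both treatments, and the gaps were narrower than at S100A9 and S100A12. The summit had 11, 13 and 22 tags in DMSO and 13, 13 and 23 after tunicamycin, with a p42 to p30 ratio of 1.5 (0.722 to 3.24) in DMSO and 1.6 (0.78 to 3.45) after tunicamycin. R21, over the last exon of S100A8 with 138 coding bases, was at 4.55, 13.3 and 49.3 in DMSO and at 27.5, 28.9 and 55.0 after tunicamycin. R19, 4.3 kb downstream of the S100A8 start site and beyond the end of the gene, was at 59.0, 62.1 and 75.8 in DMSO and at 53.5, 36.1 and 80.1 after tunicamycin. Its summit after tunicamycin had 11 tags in EV, 8 in p30 and 24 in p42 cells, which gave a p42 to p30 ratio of 2.72 (1.18 to 7.01). In DMSO that ratio was 1.57 (0.76 to 3.36). No other of the 28 p42 to p30 summit ratios of the window had an interval that left out 1. R20, next to R19, was called in p42 cells after tunicamycin alone, at 39.8. R23, 13.8 kb upstream of S100A8, was in all lists and ranked highest in p42 cells, at 83.4 in DMSO and 86.5 after tunicamycin, against 56.2 to 75.9 in the other 4 lists. Scaled to depth, its p42 summit was 0.989 times that of EV cells in DMSO (0.481 to 2.08) and 1.65 times after tunicamycin (0.766 to 3.69). Its p42 to p30 ratio was 1.36 (0.644 to 2.98) and 1.81 (0.81 to 4.34), and each interval includes 1.

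**Figure D2:**
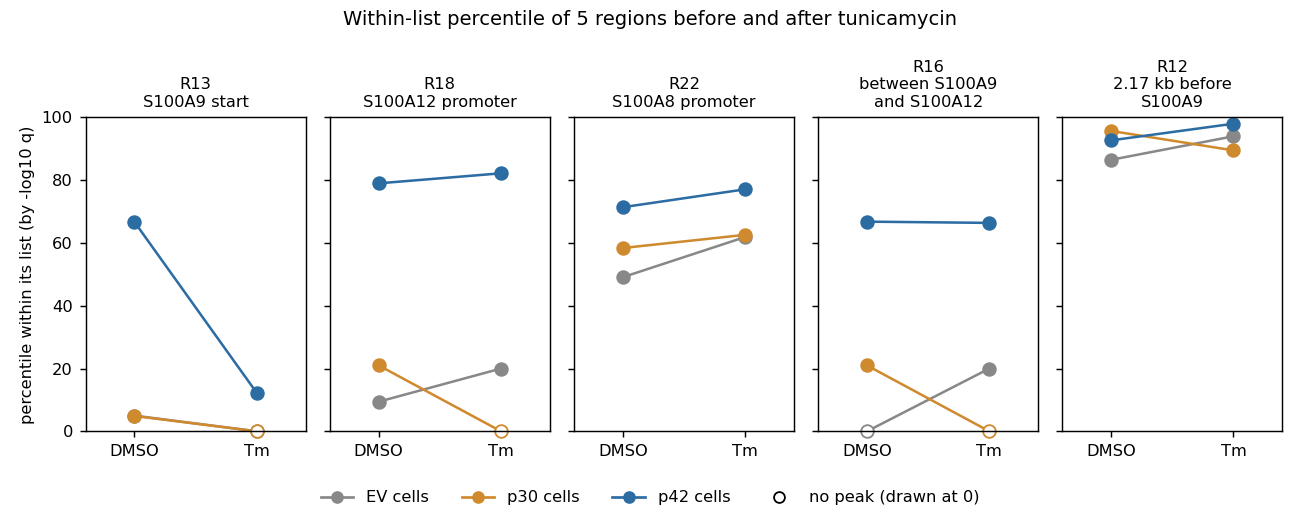
Percentile of a peak among all peaks of its list, by −log10 q, in DMSO and after tunicamycin (Tm) for 5 regions, with 1 point per pooled list and open points where no peak was called. At R18 the p42 points are at 79.0 and 82.2 and no other point is above 21, while at R12 all 6 points are above 86. At R13 the EV point in DMSO lies behind that of p30.

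Set against all promoters, the shifts at S100A9 and S100A12 were among the largest, but most promoters ranked too high to rise as far. For 15802 protein-coding genes with a promoter peak in both DMSO lists, a promoter being within 1000 bp of a start site, the best promoter percentile was compared between p42 and p30 cells. S100A9 was 61.8 points higher in p42 cells, and 11 genes (0.0696%) had a difference at least as large. S100A12 was 58.0 points higher, with 22 genes (0.139%) at or beyond it. S100A8 was 13 points higher, a difference that 8.99% of genes reached. Against EV cells in DMSO the differences were 61.7 points for S100A9, 69.6 for S100A12 and 22.3 for S100A8, reached by 0.146%, 0.0508% and 5.39% of genes. The 3 genes were chosen with results of these data known, so these shares are a description. They also depend on the starting rank. The median gene with a promoter peak was at 90.4 in the p30 DMSO list and at 89.2 in the EV DMSO list. S100A9 started at 4.88 and 5.0 there, and S100A12 at 21 and 9.43. At R13 and R18 the summit ratios of p42 to either other line in DMSO, from 2.12 to 2.52, had intervals that include 1. The same p42 list enters both comparisons.

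MACS2 sets the background of a peak from the 10 kb around its summit, and that background gave the number of tags in those 10 kb. This count holds far more tags than a summit, so its counting error is smaller. It was a whole number for 100% of the peaks above the genome average in each list, within 0.05 tags. Counts were scaled to 10000000 estimated tags in each list, called scaled tags here. A peak at the genome average, 37.0 scaled tags, gives only an upper limit. Around the S100A8 promoter the p42 counts stood apart. In DMSO the 10 kb around R22 held 67.0 scaled tags in EV (56.6 to 78.6), 69.0 in p30 (59.3 to 79.7) and 134.0 in p42 cells (122.0 to 148.0). After tunicamycin they held 58.1 (49.1 to 68.3), 56.8 (47.5 to 67.4) and 121.0 (108.0 to 135.0). The EV and p30 values were alike, and the p42 intervals overlapped none of the others. The p42 to p30 ratio was 1.95 (1.63 to 2.33) in DMSO and 2.13 (1.73 to 2.63) after tunicamycin, against a median of 0.984 over 95121 regions and 0.988 over 89150. Only regions with a peak and a count above the genome average in both lists were included. Gains from no peak or from the genome average are thus missing. A ratio at least as large was found at 0.203% of those regions in DMSO and 0.0583% after tunicamycin. Over EV cells the p42 ratio was 2.01 (1.66 to 2.44) in DMSO and 2.08 (1.7 to 2.55) after tunicamycin, and that of p30 over EV cells in DMSO was 1.03 (0.825 to 1.29). The 10 kb around R19 and R21 overlap those of R22 and share tags with them, and their p42 to p30 ratios were 2.05 and 2.03 in DMSO and 2.18 and 2.13 after tunicamycin.

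Around the S100A9 start site the gap was smaller than around S100A8. The 10 kb around R13 held 87.2 scaled tags in EV (75.4 to 100), 103.0 in p30 (91.1 to 116.0) and 141.0 in p42 cells (128.0 to 155.0) in DMSO. The p42 to p30 ratio was 1.37 (1.17 to 1.6), which 3.9% of the 95121 regions with such a ratio reached. The p42 to EV ratio was 1.62 (1.36 to 1.93), which 0.996% of 92246 reached. These 10 kb include R12 and R11 upstream. Around R12 the p42 to p30 ratio was 1.27 (1.1 to 1.47) in DMSO and 1.12 (0.949 to 1.32) after tunicamycin, and the p42 to EV ratio was 1.48 (1.26 to 1.74) and 1.21 (1.03 to 1.43). Tunicamycin gave 119.0 scaled tags around R13 in p42 cells, 0.844 times the DMSO value (0.726 to 0.981). Of 102805 regions with such a ratio, 9.35% were at or below it. Around the S100A12 promoter the counts were near the genome average or below it. R18 gave 38.7 scaled tags in p42 cells in DMSO (32.0 to 46.4) and 38.5 after tunicamycin (31.3 to 46.9), and at most 37.0 in EV cells in either treatment and in p30 cells in DMSO. The S100A12 promoter peak of p42 cells thus stood in surroundings close to the genome average, whereas the S100A8 promoter peak stood on raised surroundings. The fold of a peak is taken over these surroundings, so the same number of summit tags gives a lower fold and percentile at S100A8 than at S100A12.

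Over the whole window, peaks were called in 17 regions in EV, 16 in p30 and 21 in p42 cells in DMSO, and in 17, 13 and 21 after tunicamycin. Of the 27 regions, 12 had a peak in all 6 lists, which is 44.4% against 32.2% of all common regions. These were R2, R3 and R5 in PGLYRP4, R10, R11 and R12 upstream of S100A9, R19, R21 and R22 at S100A8, and R23, R24 and R27 further on. R2, in a PGLYRP4 intron, ranged from 21 to 55.8 in percentile and R3 from 56.6 to 76.4. R5, in another intron of PGLYRP4, was at 60.3 (EV), 63.8 (p30) and 88.0 (p42) in DMSO and at 63.7, 78.7 and 84.9 after tunicamycin. Its p42 to p30 summit ratio was 1.71 (0.888 to 3.43) in DMSO and 1.15 (0.602 to 2.21) after tunicamycin, and both intervals include 1. R24, over an exon of S100A7A, ranged from 60.8 to 78.3, and R27, over the pseudogene S100A7L2, from 61.2 to 83.5. PGLYRP3 and PGLYRP4, which encode peptidoglycan recognition proteins, and S100A7A had no promoter peak in any list. A peak in p42 lists alone was found in 7 regions: R6, R15 and R17 in both treatments, R14, R20 and R25 after tunicamycin, and R26 in DMSO. The 7 are 25.9% of the window, close to the 22.9% of all regions with a peak in p42 lists alone. By list, 4.58% of all regions were in both p42 lists alone, 4.96% in that after tunicamycin and 13.3% in that of DMSO. R6 is over a PGLYRP4 exon at 13.5 and 11.8, R25 at 34.0 is next to the pseudogene S100A7P1, and R26 at 8.67 is next to S100A7L2.

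Presence alone did not set the window apart in DMSO, where the p42 list, the deepest, had more regions than the others throughout the genome. Cut to equal list sizes, the window held 17 regions with a peak in EV, 15 in p30 and 17 in p42 cells in DMSO, with 3 in p42 and not EV cells and 3 in EV and not p42 cells, so that the excess of p42 over EV cells in DMSO was lost. Of the 21 regions with a peak in p42 or p30 cells in DMSO, 5 were in p42 only, 23.8% against 30.9% of all regions, and 0 in p30 only, against 14.6%. With EV cells, 6 of 23 were in p42 only against 35.4% of all regions, and 2 in EV only against 11.2%. Between p30 and EV cells in DMSO, 2 of 19 were in p30 only against 22.5%, and 3 in EV only against 13.7%. After tunicamycin the p42 side was larger than the background against p30 cells, and close to it against EV cells. Of 22 regions in p42 or p30 cells, 9 were in p42 only, 40.9% against 26.1% of all regions, and 1 in p30 only, against 15.1%. The 9 included R13 and R14 at S100A9, R17 and R18 at S100A12 and R15 and R16 between them. With EV cells after tunicamycin, 7 of 24 were in p42 only, 29.2% against 24.2%, and 3 in EV only against 17.2%. Cut to equal list sizes, 7 of 20 were in p42 and not p30 cells after tunicamycin, against 19.2% of all regions. In p42 and not EV cells they were 5 of 22, against 19.6%.

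Ranks were compared where both lists had a peak, with a shift of 20 percentile points or more counted as large. From p30 to p42 cells in DMSO, 5 of 16 regions were higher, R5, R13, R16, R18 and R21, against 18.2% of all regions, and 0 were lower, against 8.23%. From EV to p42 cells in DMSO, 6 of 15 were higher against 22.8% and 1, R2, was lower against 6.6%. From EV to p30 cells 0 of 14 were higher against 13.4%, and 1, R2 again, was lower against 6.82%. After tunicamycin, 3 of 12 were higher in p42 than in p30 cells against 16.5%, namely R19, R21 and R23, and 0 lower against 8.84%. Against EV cells after tunicamycin, 6 of 14 were higher in p42 cells, against 13.9%, and 0 lower, against 10.4%. Those 6 were R5, R16, R18, R19, R21 and R23. Ranked by fold in place of −log10 q, 1 region was lower in p42 than in p30 cells in each treatment, R9 in DMSO and R3 after tunicamycin, and 4 of 14 were higher than in EV cells after tunicamycin. The median shift over the shared window regions was 14.19 points from p30 to p42 in DMSO and 10.12 after tunicamycin, against 3.16 and 2.2 over all shared regions.

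By presence and rank, each count of window regions that moved with tunicamycin was between 0 and 4. In p42 cells 3 of 24 regions were gained (R14, R20 and R25) against 11.6% of all regions, and 3 were lost (R1, R9 and R26) against 27.5%. In p30 cells 1 of 17 was gained against 13.2%, and 4 were lost, R9, R13, R16 and R18, against 23.6%. The 4 lost include the S100A9 and S100A12 promoter peaks, which had a −log10 q of 2.32 and 3.44 in p30 cells in DMSO, where the lowest of the list was 1.3. In EV cells 2 of 19 were gained, R8 and R16, against 18.8%, and 2 lost, R7 and R13, against 16.3%. Of regions with a peak before and after, 1 of 18 ranked higher by 20 points in p42 cells, R2, against 5.45% of all regions, and 3 ranked lower, R11, R13 and R17, against 15.9%. In p30 cells 1 of 12, R2, ranked higher against 6.31%, and 1, R19, lower against 13.5%. In EV cells 1 of 15, R21, ranked higher against 11.5% and 0 lower against 8.15%. At the S100A8 promoter the tags in 10 kb after tunicamycin were 0.898 times the DMSO value in p42 (0.771 to 1.04), 0.823 times in p30 (0.653 to 1.04) and 0.868 times in EV cells (0.686 to 1.1), and each interval includes 1. In p42 cells the tags in 10 kb around R15 went from 60.7 scaled tags (52.2 to 70.2) in DMSO to 38.5 (31.3 to 46.9), a ratio of 0.635 (0.491 to 0.816). Of 102805 regions, 0.117% were at or below that ratio. These leave out regions that lost their peak or were at the genome average in either list, so larger drops can be missing. R15 was picked after its value was seen. Around R11, R12 and R13, whose 10 kb overlap, the ratio was 0.865 (0.75 to 0.998), 0.843 (0.729 to 0.974) and 0.844 (0.726 to 0.981), while at R18 it was 0.996 (0.753 to 1.31). The intervals at R11, R12, R13 and R15 leave out 1, and that at R18 includes it. Of the same 102805 regions, 12.7%, 9.23% and 9.35% were at or below the ratios of R11, R12 and R13. Drops of that size were thus common over all regions.

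Matches to 7 short consensus strings were counted within 100 bp of the strongest summit of each region, on both strands. The strings were TTGCNNAA (CEBP), TGTTGCAA (a CEBP and AP-1 composite), TGANTCA (AP-1), TGATGCAA (ATF4), GAGGAAGT (PU.1), TGTGGTT (RUNX) and TTCNNNGAA (STAT). A match to the composite can overlap a CEBP match, since both strings hold the letters TTGC. The CEBP letters were in 4 of 27 regions, 14.8% against 13.1% of all common regions, so the window as a whole was close to the background. The 4 were R14, R15, R16 and R18, all from the S100A9 start site to the S100A12 promoter. Each had its highest percentile in a p42 list, as did 20 of the 27 regions (74.1%, against 52.7% of all common regions), among them R13 and R17, which lie in the same stretch and held no match. The match of R14, TTGCAAAA at chr1:153358289-153358296, lies in coding sequence of S100A9 exon 2. PU.1 letters were in 4 regions (R1, R2, R5 and R27) against 6.86%, RUNX in 2 (R9 and R19) against 9.28%, and AP-1 in 1 (R18) against 12.9%. The composite, ATF4 and STAT strings were in 0 of 27, against 1.16%, 1.25% and 5.4%. A match describes letters in a window, not a bound site.

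Other S100 genes of 1q21 ranked by their own pattern. Of the 12 listed, 9 (EV), 11 (p30) and 11 (p42) had a promoter peak in DMSO and 10, 8 and 11 after tunicamycin, while 78.9 to 82.1% of all 20007 protein-coding genes had one. S100A11 and S100A2 ranked at 90 or above in every list, and S100A4, S100A10 and S100A14 at 77.5 or above. S100A6, or calcyclin, was between 67.6 and 81.2, S100A5 between 54.7 and 83.7 and S100A16 between 48.3 and 71.3. S100A7, a keratinocyte gene, had no peak in any list. S100A3 was at 16.9, 45.2 and 47.8 in EV, p30 and p42 cells in DMSO and at 5.71 in p42 cells after tunicamycin. S100A1 and S100A13 share a promoter region, which reached 54.9 in p42 cells after tunicamycin and 26.0 or less elsewhere. None of the 12 had the gap between p42 and both other lines in DMSO that S100A9 and S100A12 showed.

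Genes for receptors and partners of the calgranulins had promoter peaks about as often as protein-coding genes in general. A promoter peak was found at 8 (EV), 7 (p30) and 8 (p42) of the 10 genes in DMSO and at 7, 9 and 7 after tunicamycin. By list, 78.9 to 82.1% of all 20007 protein-coding genes had a promoter peak. The receptor genes TLR4, LY96 and CD14 and the adaptor gene MYD88 were between 73.9 and 95.6 in all lists, and BSG and CD33 between 71.1 and 97.3. AGER, which encodes RAGE, had a peak in p30 cells after tunicamycin alone, at 0.327, and CD36 in EV cells in DMSO alone, at 9.43. Of the oxidase genes, CYBA was at 74.3 or above in every list. CYBB, the catalytic subunit, was at 77.0 in p42 cells in DMSO and 63.4 in p30 cells after tunicamycin, with no peak in the other 4.

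The protein-coding genes most like each calgranulin were those with the smallest Euclidean distance over the 6 best promoter percentiles, with 0 where no peak was called. For S100A9 they were PPP1R1B (7.68), ADAMDEC1 (7.96), C11orf42 (8.38), RPE65 (8.45) and ANKRD1 (9.14), the distance being in percentile points. PPP1R1B was at 63.8 in p42 cells in DMSO and at 39.8 after tunicamycin, where S100A9 was at 66.7 and 38.6, and PPP1R1B had no peak in EV or p30 cells. For S100A12 the nearest were AGBL4 (21), TMPRSS15 (25.7), LRRC53 (26.8), OLR1 (27.8) and CAPNS2 (28.2), at larger distances. OLR1, a scavenger receptor of macrophages, was at 78.9 in p42 cells in DMSO and 64.4 after tunicamycin and at 32.5 or less elsewhere. For S100A8 they were SPESP1 (5.06), GDF6 (5.74), RCSD1 (7.61), and MATN4 and RBPJL (both 8.0), the last of which share 1 promoter region.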

How the data were processed

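ATAC-seq was measured in 12 KO-52 libraries, 2 per condition, and only the pooled-replicate peak list of each condition was used. Per the labels and methods, reads were trimmed by the authors (Trim Galore 0.6.6) and aligned by Bowtie2 2.4.4 against hg38, Picard marked the duplicates to leave out, and MACS2 called the peaks. A shift of reads for the Tn5 cut and a filter on mitochondrial reads are not given in the sources used here. The deposited fold enrichment compares the pileup under a summit with its local background, as a ratio. The −log10 p and −log10 q that the authors deposited test the same contrast, and the lowest −log10 q was 1.3. The summit is deposited as a distance in bp from the peak start, and no value is normalized between lists.

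Peaks of the numbered chromosomes and of X and Y were joined into common regions wherever at least 1 bp overlapped. Fold and −log10 p were solved for whole tags at the summit (100% of peaks in every list) and for the local background, from which tags in 10 kb and, with a genome of 2700000000 bp, the depth followed. The solution was tested on simulated data. Ratios were scaled to that depth. With 1 pooled list per condition no test between conditions was run, and no p-value was computed. Genes are those of GENCODE release 44, and sequences are RefSeq and hg38. Named genes were the 3 calgranulins, other genes of the window, 12 S100 genes of 1q21, 10 receptors and partners, cell type markers, and the 5 genes with the most similar promoter percentiles. A few partner and marker genes of these lists are not reported here and are left out of the counts. Named regions were those at the members, in all lists, with the 5 highest percentiles or the 3 largest spreads; other regions named in a count were chosen after their values were seen. The members, lists and tests were chosen with earlier results of these data known. Alternatives were a −log10 q of at least 5, equal list sizes, a depth-scaled threshold, 50% overlap, ranks by fold and autosomes only. Further alternatives were other promoter and motif widths and scaling to the number of peaks. Scaling tags in 10 kb to the median over the regions with such a ratio was chosen after seeing the data. Computations used Python 3.11.15, numpy 2.4.6, pandas 2.3.3, scipy 1.17.1 and matplotlib 3.10.9.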

Additional observations from a re-analysis of the deposited data

Results flagged for a closer look

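A pair of regions changed in opposite ways with tunicamycin in different lines. R1, 74.7 kb downstream of the S100A8 start site, had a peak in p30 cells after tunicamycin only, at percentile 8.8, and in p42 cells in DMSO only, at percentile 33.9. R16, between S100A9 and S100A12, had a peak in EV cells after tunicamycin only, at percentile 20, and in p30 cells in DMSO only, at percentile 21. With 1 pooled list per condition these differences were not tested. The R1 peak of p30 cells had 5 tags and the R16 peaks of EV and p30 cells had 6, where the fewest of any called peak were 4.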

How the results depend on the processing

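No paired analysis was possible because the lists pool the replicates; for the same reason leaving out a replicate was not run. With a −log10 q of at least 5, regions with a peak were 10 in p30 cells in DMSO and 11 in EV cells after tunicamycin. The count then was 0 for p30 without EV in DMSO, for p30 without p42 and EV without p42 after tunicamycin, and for EV gains with tunicamycin, and 1 for peaks lost with tunicamycin in p30 and in EV cells. With a depth-scaled threshold, p42 without p30 in DMSO was 3, p30 without p42 was 1, p42 without EV was 3, and p42 losses with tunicamycin were 1. With equal list sizes p30 without p42 in DMSO was 2, and p42 without EV and EV without p42 were 3 each. The EV and p42 lists then had 17 regions each, so that the larger p42 count was not kept. AP-1 matches within 50 bp were 0. Ranking by fold took 6 of 116 percentile differences across the limit of 20 points, namely R22 in p42 against EV cells in DMSO (12.1), R21 in p42 against p30 (14.1) and EV cells (15.3) and R19 in p42 against EV cells (19.6) after tunicamycin, and, as lower in p42 than in p30 cells, R9 in DMSO (-21.7) and R3 after tunicamycin (-20.4). Both counts of regions lower in p42 than in p30 cells thus went from 0 to 1. Autosomes alone took 0 across. All 75 ratios of tags in 10 kb stayed within their counting intervals when scaled to the median over the regions with such a ratio. The presence counts with 50% overlap, the promoter counts at 500 and 2000 bp and the 28 summit ratios kept their values within 1.5 times or their intervals. Depth limits what was called: a summit of 5 to 8 tags in EV or p30 cells is near the lowest callable, and a missing peak there says little.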
